A study of Mus musculus with 16 samples.

Results

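Prss8, St14, Tmprss2 and Tmprss4, which encode serine proteases anchored in the cell membrane, and Spint1 and Spint2, which encode inhibitors of such proteases, were measured by 8 of the 22626 probe sets of a mouse expression array (6 of 12393 genes with an unambiguous probe set). All probe sets annotated to exactly 1 of these symbols were taken, so that Tmprss2 and Spint2 have 2 probe sets each and the other 4 genes have 1 each. The 6 genes were chosen with the difference between metastases and primary tumors in view, and their values in that comparison are therefore given as a description, without a test.

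The 16 tumors were 9 metastases and 7 primary lung adenocarcinomas, with 1 array per tumor, from 7 p53R172HΔg/+ K-rasLA1/+ mice. Every tumor thus arose in the same genotype: a germline p53 allele with the R172H substitution and a deleted G, beside 1 wild type p53 allele, together with the LA1 allele of K-ras, a latent oncogenic allele that becomes active in single cells by spontaneous recombination. The authors state that part of the tumors of this model had lost the wild type p53 allele. Its state in the 16 tumors is not given. Mouse 1 gave a liver and 2 body wall metastases (1 of them labelled inguinal), mouse 2 a liver metastasis, mouse 3 a body wall, a heart and a mediastinal lymph node metastasis, and mouse 4 a mediastinal lymph node and a parietal pleura metastasis. A primary tumor was profiled from each of these 4 mice and from mice 5, 6 and 7, which have no profiled metastasis. All mice were male except mouse 6, ages are not given, and the tumors were dissected away from adjacent tissue. Metastases of 1 mouse are not independent of each other, since they share a host.

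Matriptase (St14) is a transmembrane serine protease of epithelia that activates prostasin (Prss8), a protease held at the surface by a glycolipid anchor, and prostasin in turn raises the activity of the epithelial sodium channel. Tmprss2 and Tmprss4 belong to the same class of type II transmembrane serine proteases. Spint1 (HAI-1) and Spint2 (HAI-2) are transmembrane proteins with Kunitz domains that bind and inhibit matriptase, prostasin and related proteases on the same cells.

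The upstream sequences of Spint1, Spint2 and Tmprss2, the 3 members with an entry in the RefSeq promoter table (build GRCm38.p6), are shown because the 3 genes were all lower in most metastases. Each run holds the 250 bases before the annotated start, 5′ to 3′ on the strand of the gene, and capitals mark matches to the motifs named after them.
Spint1 (chr2:119237110-119237359, + strand): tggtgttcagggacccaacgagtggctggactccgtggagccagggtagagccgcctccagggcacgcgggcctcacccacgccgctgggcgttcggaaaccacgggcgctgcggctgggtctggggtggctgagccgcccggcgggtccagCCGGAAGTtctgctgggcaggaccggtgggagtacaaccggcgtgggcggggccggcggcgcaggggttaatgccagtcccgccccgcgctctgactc
Spint2 (chr7:29281978-29282227, - strand): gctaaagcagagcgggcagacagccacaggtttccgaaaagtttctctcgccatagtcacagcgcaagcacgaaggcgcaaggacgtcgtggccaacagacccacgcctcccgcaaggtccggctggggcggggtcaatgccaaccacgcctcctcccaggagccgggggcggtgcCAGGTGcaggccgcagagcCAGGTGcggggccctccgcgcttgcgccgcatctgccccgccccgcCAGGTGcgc
Tmprss2 (chr16:97611196-97611445, - strand): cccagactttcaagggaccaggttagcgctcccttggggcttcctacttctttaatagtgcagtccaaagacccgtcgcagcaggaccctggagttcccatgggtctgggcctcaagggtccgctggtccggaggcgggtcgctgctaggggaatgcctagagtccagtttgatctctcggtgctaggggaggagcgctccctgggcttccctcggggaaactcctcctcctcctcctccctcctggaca
The window of 300 bases (250 before the start and 50 after it) was searched on both strands for CAGGTG, an E-box bound by factors of the Zeb and Snail classes, for CCGGAAGT, a binding site of ETS factors, and for AACCGGTT, a site of grainyhead-like factors. The motifs were chosen after the sequences had been seen, and they do not overlap each other. Spint2 held 3 CAGGTG matches, at positions −74, −55 and −9 from the start. At least 3 such matches were present in 0.365% of 32851 promoters of the same length, and at least 1 in 20.2%. Spint1 held 1 CCGGAAGT match at position −98, which 3.89% of promoters share. Tmprss2 matched none of the 3 motifs, and AACCGGTT, present in 0.146% of promoters, was in none of the 3 windows. A match describes these letters and not a bound site.

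The deposited values are model-based intensities on a linear scale in arbitrary units, and intensities of different probe sets cannot be ranked against each other. Array medians lay between 75.0 and 85.5 and pairs of arrays correlated between 0.900 and 0.969. Of the lung lineage factors, Nkx2-1, the most specific to lung and thyroid, had intensities of 1.07 to 56.5 in the metastases and 13.96 to 58.3 in the primary tumors (matched log2 difference −0.69 with an SE of 0.62), and so was near 0 in at least 1 metastasis. Foxa1 had 320 to 691 in the metastases and 302 to 442 in the primary tumors, and Foxa2 had 92.9 to 731 in the metastases and 246 to 906 in the primary tumors. The summed intensity of the 3 was 497 to 1343 in the metastases and 702 to 1389 in the primary tumors. A lower intensity in a dissected tumor cannot be told apart as fewer cells of a type or less RNA per cell.

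St14 separated the tissues completely. Its intensity had a lowest, median and highest value of 43.4, 63.6 and 94.3 in the 9 metastases, against 167, 245 and 286 in the 7 primary tumors. The brightest metastasis (body wall, mouse 3) was thus dimmer than the dimmest primary tumor (mouse 7). The means were 67.9 ± 19.8 in metastases (SD, n = 9) and 225 ± 47.1 in primary tumors (SD, n = 7). Matched within mice 1 to 4, the log2 difference (metastasis minus primary) was −1.69 with an SE of 0.23, a fold of 0.310. The size of the drop varied by mouse. The mean log2 ratio of metastasis to matched primary was −2.30 in mouse 1 and −2.13 in mouse 2, but −1.25 in mouse 3 and −1.16 in mouse 4. Within mouse 1, matriptase transcript was low to a similar extent at all 3 sites, with 63.6 and 44.5 in the body wall and 43.4 in the liver, against 245 in the primary tumor.

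Prss8 had the largest matched difference of the 6 genes. Its intensity had a lowest, median and highest value of 15.1, 74.0 and 185 in metastases, against 91.4, 234 and 396 in primary tumors. The groups overlapped, because the inguinal metastasis of mouse 1 (185) and both metastases of mouse 4 (93.3 in the lymph node and 106 in the pleura) lay above the dimmest primary tumor, that of mouse 3. Every metastasis was nevertheless below the primary tumor of its own mouse, by log2 ratios between −2.59 (heart, mouse 3) and −0.78 (inguinal, mouse 1). The matched log2 difference was −1.92 with an SE of 0.30, a fold of 0.264. Mouse 3 set the low end in both tissues: its metastases had 37.8 in the body wall, 15.1 in the heart and 18.2 in the lymph node, against 91.4 in its primary tumor. The values of the heart and lymph node metastases lay below 24.3, the 25th percentile of all values on the arrays.

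**Figure D1:**
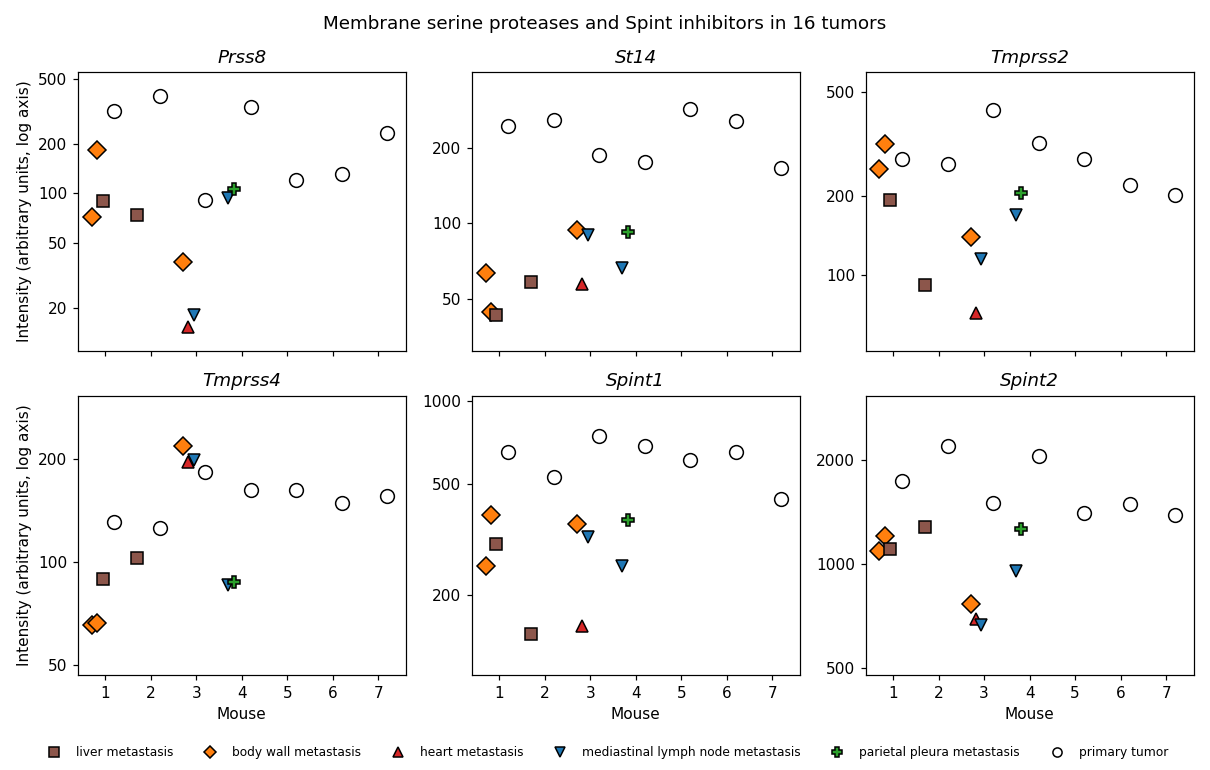
Intensity (arbitrary units, log axis) of the 6 genes by mouse, each at its brightest probe set, with metastases by site (filled symbols) left of the primary tumor (open circle). St14, Spint1 and Spint2 separate all 9 metastases from all 7 primary tumors, while the 3 metastases of mouse 3 have the lowest Prss8 and the highest Tmprss4 of the 16 tumors.

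Tmprss2, a protease best known for priming viral surface proteins and as an androgen-regulated gene of the prostate, was lower in 8 of 9 metastases at its brightest probe set. The lowest, median and highest intensities were 71.0, 170 and 316 in metastases, against 202, 277 and 428 in primary tumors. The inguinal metastasis of mouse 1 (316) exceeded its primary tumor (279), with a log2 ratio of 0.18, and the body wall metastasis of the same mouse (255) was close to it. In mouse 3, by contrast, the body wall, heart and lymph node metastases had 139, 71.0 and 115, against 428 in the primary tumor, which was the brightest of all 16. The mean log2 ratio was −0.16 in mouse 1, −1.55 in mouse 2, −2.04 in mouse 3 and −0.78 in mouse 4. The matched log2 difference was −1.10 with an SE of 0.30. The second Tmprss2 probe set gave a smaller value, −0.49 with an SE of 0.18, and was below the matched primary tumor in 9 of 9 metastases. Its lowest, median and highest intensities were 77.4, 137 and 176 in metastases, against 152, 184 and 202 in primary tumors, so both probe sets ran in the same direction with different sizes.

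Tmprss4, a type II protease studied mainly in carcinomas, was the member that differed least and that split by mouse. Its intensity had a lowest, median and highest value of 65.3, 89.3 and 219 in metastases, against 126, 156 and 183 in primary tumors. All 6 metastases of mice 1, 2 and 4, at 65.3 to 102, lay below every primary tumor. All 3 metastases of mouse 3 lay above every primary tumor, with 219 in the body wall, 197 in the heart and 198 in the lymph node, against 183 in the primary tumor of that mouse. The log2 ratio to the matched primary tumor was 0.26, 0.10 and 0.12 at these 3 sites, whereas the mean log2 ratio was −0.84 in mouse 1, −0.29 in mouse 2 and −0.90 in mouse 4. The matched log2 difference over all 4 mice, −0.47 with an SE of 0.18, is therefore an average over unlike mice. The primary tumor of mouse 3 was itself the brightest primary tumor. The share of all probe sets with such a split between mouse 3 and the other mice was not computed.

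Spint1, the inhibitor that keeps matriptase in check in many epithelia, was lower in every metastasis than in any primary tumor. The lowest, median and highest intensities were 145, 306 and 388 in metastases, against 442, 652 and 744 in primary tumors. The lowest values were those of the liver metastasis of mouse 2 (145) and the heart metastasis of mouse 3 (155), with log2 ratios of −1.87 and −2.26. The other 7 metastases had between 254 and 388. The matched log2 difference was −1.36 with an SE of 0.24, a fold of 0.388.

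Spint2, which inhibits prostasin and matriptase alike, differed less than Spint1. At its brightest probe set the lowest, median and highest intensities were 666, 1092 and 1284 in metastases, against 1391, 1506.5 and 2204 in primary tumors, again without overlap. All log2 ratios lay between −1.18 (lymph node, mouse 3) and −0.53 (inguinal, mouse 1). The 3 metastases of mouse 3 were the dimmest, with 767 in the body wall, 695 in the heart and 666 in the lymph node. The matched log2 difference was −0.85 with an SE of 0.12 at this probe set, and −0.92 with an SE of 0.20 at the second, whose intensities were 228 to 757 in metastases and 637 to 1197 in primary tumors and did overlap.

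The plot of log2 ratios by metastasis shows the 6 genes side by side. The largest drop among them was that of Prss8 in 6 of 9 metastases, that of St14 in the inguinal and liver metastases of mouse 1, and that of Tmprss2 in the body wall metastasis of mouse 3. The smallest was that of Tmprss2 or Tmprss4 in every metastasis. All 6 genes were below the matched primary tumor in 5 of 9 metastases and 5 of 6 genes in the other 4, the exceptions being Tmprss2 in the inguinal metastasis of mouse 1 and Tmprss4 in mouse 3. With each gene at its brightest probe set, the median matched log2 difference of the 6 genes was −1.23, beside −0.01 over all 12393 genes.

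**Figure D2:**
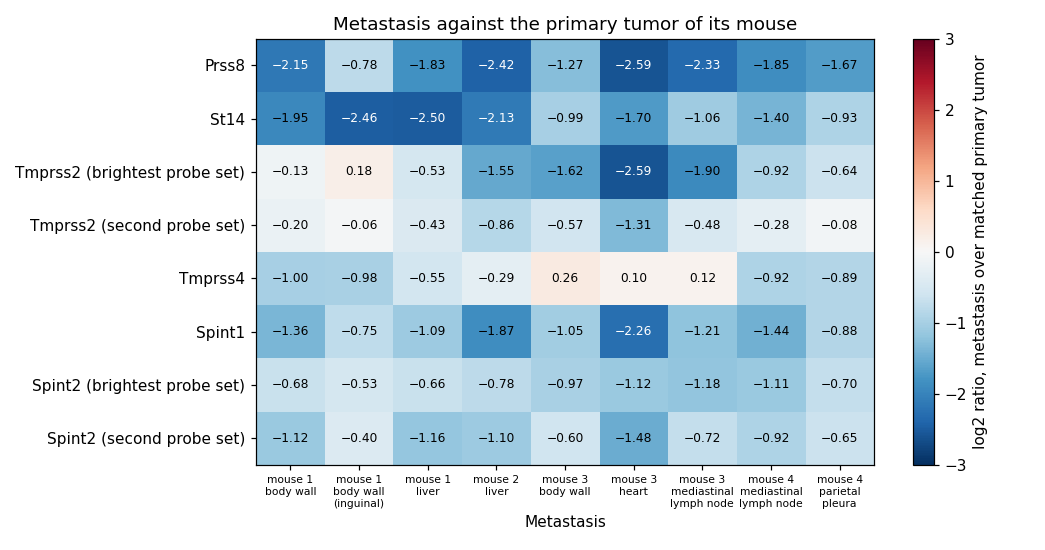
Log2 ratio of each of 9 metastases to the primary tumor of its mouse (columns) at the 8 probe sets (rows), with blue for lower and red for higher in the metastasis. Of the 72 ratios, 4 are above 0: Tmprss2 in the inguinal metastasis of mouse 1 (0.18) and Tmprss4 in the 3 metastases of mouse 3 (0.26, 0.10 and 0.12).

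For orientation, at an adjusted p under 0.05 in limma (Benjamini-Hochberg) the matched comparison called 80 of 22626 probe sets (0.354%), and 3 of the 8 probe sets of these genes were among them, those of St14 and Prss8 and the brightest of Spint2. At an unadjusted p under 0.01 it called 900 probe sets (3.98%) and 6 of the 8. With all 16 tumors, and the mouse as a random block, 280 probe sets (1.24%) and 5 of the 8 passed the adjusted threshold, and 1131 (5%) and 7 of the 8 an unadjusted p of 0.01. Intensities of the 9 metastases lay wholly below those of the 7 primary tumors at 72 probe sets (0.318%) and at 3 of the 8, and all 9 ratios were below 0 at 814 probe sets (3.6%) and at 6 of the 8. The genes were selected on this comparison, so nothing is read from these shares. Leaving out single tumors changed the count of 3 at the adjusted threshold to between 0 and 4, and leaving out any mouse changed it to 0. The shares of all probe sets in these fits were not computed.

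Differences between metastatic sites did not enter the choice of the genes and were tested in limma with the mouse as a random block. Between the 4 thoracic metastases (heart, mediastinal lymph node and pleura) and the 5 distant metastases (liver and body wall), none of the 8 probe sets passed an adjusted p of 0.05. This comparison called 0 of 22626 probe sets (0%), and at an unadjusted p under 0.01 it called 203 (0.897%) and again none of the 8. The largest difference was that of Prss8, with 15.1, 18.2, 93.3 and 106 in thoracic metastases and 37.8, 71.5, 74.0, 89.5 and 185 in distant metastases, a log2 difference of −0.93 (95% interval −2.45 to 0.58, adjusted p = 0.854 in limma). St14 differed by 0.26 (−0.37 to 0.90), Spint1 by −0.09 (−0.94 to 0.76), Spint2 by −0.29 (−0.80 to 0.23), Tmprss2 by −0.42 (−1.38 to 0.54) and Tmprss4 by 0.31 (−0.60 to 1.23) in log2 units. Leaving out 1 metastasis at a time moved the value of Prss8 between −1.27 and −0.53 and that of Tmprss4 between 0.16 and 0.69. Only mouse 3 holds both kinds of site. The mean of its heart and lymph node metastases was set against its 1 body wall metastasis. The log2 differences of the 8 probe sets lay between −1.19 (Prss8) and −0.15 (Tmprss4). St14, at −0.39, and Tmprss4 were opposite in sign to the comparison over all 9. At the second Tmprss2 probe set alone, the lymph node metastasis (138) was above the body wall metastasis (130). The share of all probe sets lower in this way was not computed.

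Tmprss2 did not pass the test between body wall and other metastases. The 3 body wall metastases had 139 (mouse 3), 255 and 316 (both mouse 1) at the brightest probe set. The other 6 had a lowest, median and highest of 71.0, 142 and 206, with 193 in the liver metastasis of mouse 1. The log2 difference was 0.70 (95% interval −0.07 to 1.47, adjusted p = 0.987 in limma), and the groups overlapped. The second Tmprss2 probe set differed by 0.34 (−0.13 to 0.82). Differences of the other 5 genes in body wall metastases lay between −0.19 for Tmprss4 and 0.64 for Prss8. Over all probe sets this comparison called 0 (0%) at the adjusted threshold and 147 (0.65%) at an unadjusted p under 0.01, none of them among the 8. Of all probe sets, 39.4% had a log2 difference below 0 here, and 1 of the 8 did.

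In the 2 liver metastases Tmprss2 had 193 and 90.8, against 71.0 to 316 in the 7 other metastases, a log2 difference of −0.46 (95% interval −1.51 to 0.59), which moved between −0.90 and −0.11 with 1 metastasis left out at a time. St14 had 43.4 and 58.7 in liver metastases, against 44.5 to 94.3 in the others, a difference of −0.40 (−1.08 to 0.27). Spint1 differed by −0.43 (−1.35 to 0.49), the brightest Spint2 probe set by 0.26 (−0.31 to 0.83) and Tmprss4 by −0.05 (−1.05 to 0.94). None of the 8 probe sets passed an adjusted p of 0.05, which 10 of 22626 (0.0442%) did, or an unadjusted p of 0.01, which 323 (1.43%) did. Prss8 differed by 0.28 (−1.51 to 2.07) with the mouse as a random block and by −0.36 with it as a fixed block.

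Among the primary tumors, those of mice 5 to 7 were set against those of mice 1 to 4, from which metastases were profiled. Spint2 was lower at its brightest probe set, with 1406, 1491.5 and 1391 in mice 5, 6 and 7, against 1746, 2204, 1506.5 and 2060 in mice 1 to 4, and the groups did not overlap. A gap of this kind, with mice 5 to 7 lower, was present at 2920 of all probe sets (12.9%) and at 1 of the 8. The log2 difference was −0.38 (95% interval −0.77 to 0.02, adjusted p = 0.258 in limma), so the difference did not pass the threshold, and the second Spint2 probe set differed by 0.01 (−0.53 to 0.56). Prss8 had 120, 131 and 234 in mice 5 to 7, against 317, 396, 91.4 and 337 in mice 1 to 4, a log2 difference of −0.69 (−1.996 to 0.617, adjusted p = 0.513 in limma). Without the primary tumor of mouse 3 this difference was −1.17 (adjusted p = 0.128 in limma). Tmprss2 differed by −0.46 (−0.96 to 0.05), Spint1 by −0.21 (−0.67 to 0.26), St14 by 0.11 (−0.47 to 0.69) and Tmprss4 by 0.07 (−0.34 to 0.47). No probe set of the 6 genes passed the adjusted threshold, against 231 of all probe sets (1.02%), or an unadjusted p of 0.01, against 1902 (8.41%).

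Across the 16 tumors, log2 values were centred on the mean of their tissue (9 metastases, 7 primary tumors) and correlated as a description, since tumors share mice. Prss8 and Spint2, a protease and its inhibitor, went together, with r = 0.86 at the brightest Spint2 probe set and 0.84 at the second. Prss8 and Tmprss4 ran in opposite directions (r = −0.82), and so did the brightest Spint2 probe set and Tmprss4 (r = −0.77). All 3 relations were weaker without mouse 3. Without its 4 tumors, an omission chosen after the values were seen, r was −0.44 for Prss8 and Tmprss4, −0.16 for Spint2 and Tmprss4, and 0.65 for Prss8 and the brightest Spint2 probe set over the other 12 tumors. For the last pair, r was 0.89 in all 9 metastases and 0.20 in the 6 outside mouse 3. The second Spint2 probe set differed here. Its r with Prss8 was 0.62 over the 12 tumors, 0.87 in all 9 metastases and 0.80 in the 6 outside mouse 3. Spint1 and Tmprss2 had r = 0.73 over 16 tumors and 0.83 without mouse 3. Tmprss4 and Tmprss2 ran in opposite directions, with r = −0.63 at the brightest Tmprss2 probe set and −0.57 at the second. Without mouse 3 these values were −0.70 and −0.86, and in the 7 primary tumors alone 0.48 and −0.37. The 2 probe sets of Tmprss2 correlated at 0.77 over 16 tumors, but at 0.90 in the 9 metastases and 0.03 in the 7 primary tumors. The 2 probe sets of Spint2 correlated at 0.70 over 16 tumors, at 0.79 in the metastases and 0.45 in the primary tumors. St14 was little related to the other genes (r between −0.32 and 0.36), its substrate Prss8 (r = −0.32) and its inhibitor Spint1 (r = 0.22) included.

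**Figure D3:**
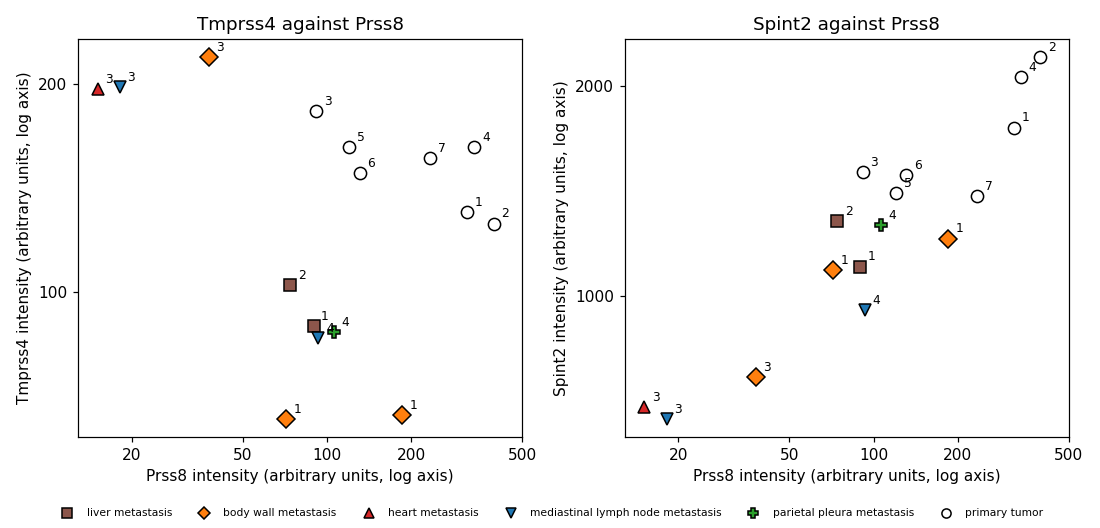
Tmprss4 (left panel) and Spint2 (right panel) against Prss8, as intensities in arbitrary units on log axes, for 16 tumors with the mouse number beside each symbol. The 3 metastases of mouse 3 lie at the low end of Prss8 (15.1 to 37.8), with the highest Tmprss4 (197 to 219) and the lowest Spint2 (666 to 767).

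A shared pattern was formed by averaging the 6 tissue-centred genes after scaling each to an SD of 1. Spint1 (r = 0.82) and Tmprss2 (r = 0.74) followed this average most closely over the 16 tumors, to which each gene itself contributes, then Prss8 (0.58), Spint2 (0.53) and St14 (0.30), with Tmprss4 at −0.37. Of 10182 other genes ranked, those most like it were F3 (tissue factor, the cell surface trigger of coagulation, r = 0.86), Epcam (an epithelial adhesion molecule, r = 0.84), Cldn7 (a tight junction claudin, r = 0.81), Lamb3 (a laminin chain of epithelial basement membranes, r = 0.80) and Kcnip1 (a subunit of voltage-gated potassium channels, r = 0.80).

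Other membrane-anchored serine proteases did not lean to one direction in number. Of 22 listed, 14 were measured, 7 with a matched log2 difference below 0 and 7 above, with a median of −0.00 and none past the adjusted threshold. Of the 14, 4 had a mean intensity at or below 24.3, the 25th percentile of all values, and are not named below. At an unadjusted p under 0.01 in limma, 3 were lower and 1 higher in metastases, beside 362 lower and 154 higher of 12393 genes. The lowest were Hpn (hepsin, a type II protease that can also activate Hgf), at −1.66 with an SE of 0.38, Dpp4 (a cell surface peptidase that cleaves dipeptides from the N-terminus of polypeptides), at −1.28 with an SE of 0.35, and Prss22 (tryptase epsilon), at −0.98 with an SE of 0.30. Prss22, a secreted rather than anchored protease, was kept in the list as drawn up. Hpn had intensities of 12.1 to 64.4 in metastases, against 42.3 to 94.6 in the 7 primary tumors. The highest were Fap (fibroblast activation protein) at 1.00 with an SE of 0.26, Prss32 at 0.39 with an SE of 0.17 and Tmprss13 at 0.19 with an SE of 0.19. Of 17 other inhibitors listed, 12 were measured, 5 below 0 and 7 above, with a median of 0.04 and none past the threshold. Of the 12, 2 had a mean intensity at or below 24.3 and are not named. Wfdc2, a secreted protein with whey acidic protein domains, was the lowest at −0.96 with an SE of 0.32, followed by Slpi (secretory leukocyte peptidase inhibitor) at −0.33 and Serpinb6a at −0.11. The highest were Serpinf1, a serpin also known as PEDF that does not itself inhibit proteases, at 0.95 with an SE of 0.28, Tfpi2 at 0.35 and Tfpi at 0.12.

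Substrates and partners of the surface proteases leaned to lower values. Of 18 listed, 17 were measured, 14 of them below 0, beside 6423 of 12393 over all genes. The list was chosen with earlier results of these data known, so this count is a description. The median log2 difference was −0.59. Epcam, Cldn7 and Cdh1 of this list are also among the epithelial markers given below, so the 2 lists are not separate. Lamb3 alone passed the adjusted threshold (−2.11 with an SE of 0.28, adjusted p = 0.0219 in limma). Over all genes, 44 passed it lower and 2 higher in metastases. Lamb3 had intensities of 74.1 to 304 in metastases, against 424 to 834 in primary tumors. Epcam, a substrate of matriptase, differed by −2.38 with an SE of 0.56, and Scnn1a, the alpha subunit of the sodium channel that prostasin activates, by −2.09 with an SE of 0.45. Scnn1a had 67.5 to 329.8 in metastases, against 469.9 to 1313 in primary tumors. At the other end, Plau (urokinase) differed by 0.33 with an SE of 0.18, Egfr by 0.04 and Mst1, the ligand of the Ron receptor, by 0.02.

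Markers of other cell types moved in part with the 6 genes, and their part in the result was not tested. All 13 epithelial markers had matched log2 differences below 0, with a median of −1.14 and 1 past the adjusted threshold (Cldn3, −1.14, adjusted p = 0.0236 in limma), and their summed intensity was 5151 to 14150.1 in metastases and 7789 to 18737 in primary tumors. The keratins of simple epithelia differed by −1.43 with an SE of 0.56 for Krt7, −0.92 with an SE of 0.36 for Krt19, −0.39 with an SE of 0.22 for Krt8 and −0.17 with an SE of 0.19 for Krt18. All 10 alveolar type 2 markers were below 0 (median −2.16), with sums of 1723 to 33119 in metastases and 19109 to 52266 in primary tumors. The metastases of mouse 3, which had the least Prss8 and Spint2, also had the lowest alveolar type 2 sums, 1723 in the heart, 2517 in the lymph node and 3227 in the body wall, and the primary tumor of that mouse had the lowest sum of its tissue. The 5 club cell markers had a median of −1.79, with 2 past the adjusted threshold (Scgb1a1, −5.63, adjusted p = 0.000256, and Scgb3a1, −2.21, adjusted p = 0.0264, both in limma) and sums of 328 to 749.7 in metastases and 1777 to 5897 in primary tumors.

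**Figure D4:**
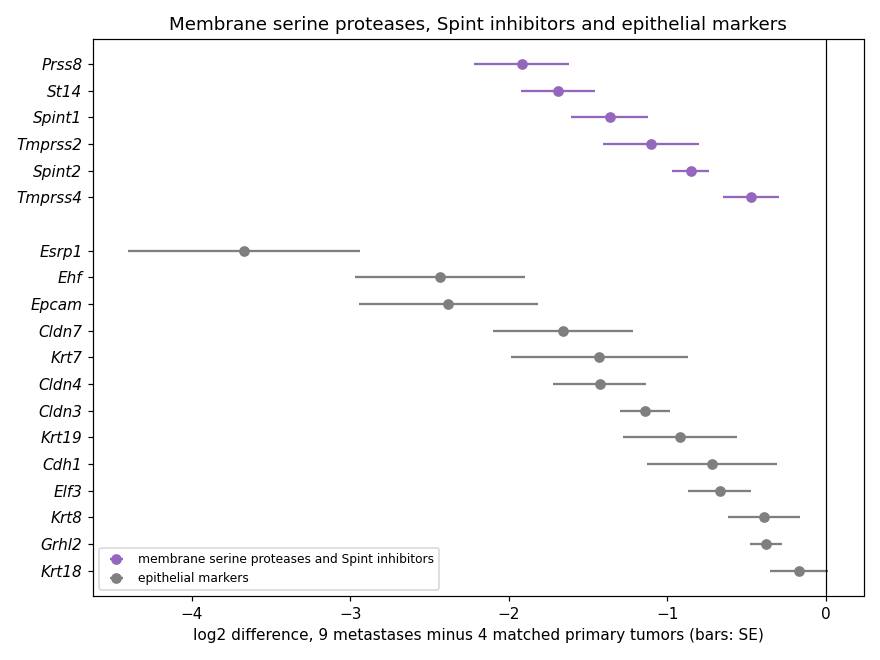
Log2 difference of 9 metastases minus the 4 matched primary tumors (x axis, bars are the SE of the limma fit) for the 6 genes and for 13 epithelial markers (y axis), each at its brightest probe set. All points are below 0, from −1.92 (Prss8) to −0.47 (Tmprss4) among the 6 genes and from −3.67 (Esrp1) to −0.17 (Krt18) among the epithelial markers.

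Transcripts of the host organs were present in some metastases. The summed hepatocyte markers (9 measured, all above 0, median 0.54) were 9290 and 5583 in the liver metastases. The sums were also 6256 and 7864 in the body wall metastases of mouse 1. The other 5 metastases had 548 to 2137, and the primary tumors 662 to 1468. The median log2 ratio of the 9 markers to the matched primary tumor was 3.06 and 1.39 in the liver metastases. In those 2 body wall metastases it was only 0.20 and 0.10. The sum of 10 striated muscle markers (median 0.47) was 3070 in the heart metastasis, 479 to 1804 in the other 8 and 488 to 1208 in primary tumors. That heart metastasis had the lowest Tmprss2 and the next to lowest Spint1 of all tumors. Whether its muscle content bears on these values was not tested. Fibroblast markers (7 measured, median 0.85) summed to 2244 to 17139 in metastases and 1320 to 5816 in primary tumors. Macrophage markers (7, median −0.15) summed to 1590 to 6230 in metastases and 3635 to 6975 in primary tumors, and endothelial markers (6, median −0.25) to 499.9 to 1145 in metastases and 816 to 1368 in primary tumors. Lymphocyte markers (8, median 0.10) stayed between 276 and 425 in metastases and 304 and 377 in primary tumors, and skin and squamous markers (5, median −0.05) between 160 and 202 in metastases and 179 and 249 in primary tumors. None of these marker lists other than the epithelial and club cell markers held a gene past the adjusted threshold.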

How the data were processed

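Total RNA of 16 dissected tumors was hybridized by the authors to Affymetrix Mouse 430A 2.0 arrays, 1 per tumor, and scanned in Microarray Suite. The deposited intensity values were model-based dChip estimates (invariant set normalization, mismatch signal subtracted from perfect match signal). Of 22690 probe sets, 64 controls were left out. Through the platform annotation, 20380 of the others have 1 symbol, 691 several and 1555 none. Intensities under 1 were raised to 1 (3.71% of values were at or under 1) and log2 values were taken. The number of arrays limits the precision.

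Comparisons were fitted in limma 3.58.1 (R 4.3.3, statmod 1.5.0) over all 22626 probe sets with Benjamini-Hochberg adjustment. Mouse was a fixed block in the matched comparison and a random block elsewhere (consensus correlation 0.238 for 16 tumors, 0.154 for thoracic, 0.281 for body wall and 0.251 for liver sites), except between primary tumors. Alternatives kept these correlations. Metastases and primary tumors are paired because they come from the same mouse. Deviations from the tissue mean of a metastasis correlated with those of its own primary tumor at 0.02 to 0.38, best of the 4 for 6 of 9. The matched fit counts metastases of 1 mouse as separate replicates, and its p-values are too small to that extent. The random block allows for the likeness of tumors of 1 mouse, but by a correlation shared by all probe sets.

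Every probe set of the 6 genes is named. For 3 lists of related genes the 3 lowest and 3 highest genes are named, at the brightest probe set with a mean above 24.3. Marker lists of 11 cell types were summed. Members and lists were chosen with earlier results of these data known. The script was tested on simulated data. Alternatives were other floors, quantile normalization, median centring, a filter on dim probe sets, a variance trend, no block, a fixed block, 1 mean ratio per mouse, each tumor or mouse left out, no female mouse, and the methods' t-test over 9 log2 ratios, added after the values were seen. Promoters were not analysed here for Prss8, St14 and Tmprss4.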

Additional observations from a re-analysis of the deposited data

Results flagged for a closer look

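Tmprss4 differed between mice. Its log2 ratio to the matched primary tumor was above 0 in all 3 metastases of mouse 3 (mean 0.16, from 0.10 to 0.26) and below 0 in all 3 metastases of mouse 1 (mean −0.84) and in both of mouse 4 (mean −0.90). The difference between mice was not tested, and the share of all probe sets with such a split was not computed. Over 16 sets of values (8 probe sets in metastases and in primary tumors), no tumor lay farther from its neighbours than Dixon's limit, which chance passes in about 1 of 20 groups.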

How the results depend on the processing

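In the matched and the 16-tumor comparison, every probe set of the 6 genes kept a log2 difference below 0 under all alternatives run (for Prss8 −2.07 to −1.81 when matched, for Tmprss4 −0.72 to −0.33). The count of probe sets past an adjusted p of 0.05 in the matched comparison was 3, and 5 with dim probe sets left out, 5 with a variance trend and robust prior, 5 in the methods' t-test, 1 with no replicate block and 0 with 1 mean ratio per mouse. Leaving out single tumors or mice gave 0 to 4. It was 0 without the metastases in the mouse 1 body wall (not the inguinal one), the mouse 2 liver or the mouse 4 lymph node, 0 without the primary tumor of mouse 1, 2 or 4, 1 without that of mouse 3, and 0 when any 1 of the 4 mice was left out. The methods' t-test, which takes the 9 ratios as independent, called 7 of the 8 at an unadjusted p under 0.01 (9.76% of all probe sets) and 5 after Benjamini-Hochberg adjustment (3.91%). At an unadjusted p under 0.01 in limma, 5 to 6 of the 8 passed with single tumors or mice left out. Except for the methods' t-test, the share of all probe sets passing under each alternative was not computed. Nothing about the 6 genes is read from these changes in count.

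Between primary tumors, 1 probe set, that of Prss8, passed an unadjusted p of 0.01 without the primary tumor of mouse 3 (adjusted p = 0.128 in limma), against 0 with all tumors (range 0 to 1). The share of all probe sets passing without that tumor was not computed. Some site and primary differences, none of them past a threshold as reported, changed sign. With the mouse as a fixed replicate block, thoracic against distant metastases gave −0.39 for St14 (0.26 as reported) and −0.15 for Tmprss4 (0.31 as reported), which are also the values within mouse 3. Liver against other metastases gave, with that block, −0.36 for Prss8 (0.28 as reported), 0.44 for Tmprss4 (−0.05 as reported), and −0.40 and −0.059 for the second and brightest Spint2 probe sets (0.05 and 0.26 as reported). Body wall against other metastases gave −0.031 for St14 with no replicate block (0.13 as reported). The brightest Spint2 probe set there gave −0.078 after quantile normalization and −0.011 after median centring (0.06 as reported), and the second Tmprss2 probe set between primary tumors gave 0.079 and 0.047 (−0.04 as reported).

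Leaving out 1 tumor at a time also crossed 0. The range was −0.34 to 0.19 for Spint1 in thoracic metastases. In body wall metastases it was −0.11 to 0.32 for St14 and −0.019 to 0.18 for the brightest Spint2 probe set. In liver metastases it was −1.01 to 0.030 for Spint1, −0.21 to 0.016 for Tmprss4 and −0.17 to 0.32 for the second Spint2 probe set. Between primary tumors it was −0.051 to 0.34 for St14, −0.014 to 0.17 for Tmprss4, −0.15 to 0.15 for the second Spint2 probe set and −0.13 to 0.020 for the second Tmprss2 probe set. The cause was not tested. No replicate block or fixed block changed another call.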
